A study of Mus musculus with 10 samples.

Results

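The mitochondrial tRNAs of the mouse are transcribed from both strands of a small circular genome, and 8 of the 22 mitochondrial tRNA genes annotated in GENCODE M21 (GRCm38) lie on its minus strand and are copied from the light-strand promoter. These 8 tRNAs, which carry proline, glutamic acid, serine (the serine tRNA that reads UCN codons), tyrosine, cysteine, asparagine, alanine and glutamine, were followed here in small RNA libraries of mouse sperm. They were chosen by gene strand and not by a measured value, although earlier results of these data were known when they were chosen. They were 8 of the 73 tRNAs, nuclear and mitochondrial, that the libraries list by anticodon. Together they contributed 572053 reads over 10 libraries.

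The cells were ripe sperm stored in the last part of the male tract (cauda epididymis and vas deferens) of C57BL/6J mice. The donors, the fathers of the study (F0), received from 4 weeks of age, for 10 weeks, either a control diet with 10% of kcal as fat (CD-F0, n = 5 samples) or a high-fat diet with 42% of kcal as fat (HFD-F0, n = 5 samples), and the labels name no allele or agent beyond the diet. The question was how the small RNA content of sperm differs between fathers on the 2 diets. The labels do not say whether each sample is 1 male or a pool, so the p-values below measure the spread between samples.

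The long light-strand transcript is cut apart by enzymes that release each tRNA at its 5′ and 3′ end. A separate enzyme then adds the bases CCA to the 3′ end, where the amino acid is later attached, so the CCA itself is not written in the mitochondrial genome. Mature sperm keep a modest number of mitochondria in the midpiece of the tail, and they are rich in fragments of tRNAs (tsRNAs), most of them cut near the anticodon loop so that the 5′ part of the tRNA is the fragment sequenced. Apart from its tRNAs the light strand encodes a single protein, the complex I subunit of the gene mt-Nd6.

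The 8 tRNA sequences are shown because the fragments below are described by the ends of these sequences. Each is given as the RNA is read, 5′ to 3′ in DNA letters from the GRCm38 mitochondrial genome of GENCODE M21, on the minus strand, without the added CCA and with the anticodon in capitals. They stand in the order in which the light-strand transcript meets them.

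mt_tRNA-Pro-TGG (mt-Tp, chrM:15356-15422): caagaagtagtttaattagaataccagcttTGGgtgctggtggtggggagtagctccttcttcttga
mt_tRNA-Glu-TTC (mt-Te, chrM:14071-14139): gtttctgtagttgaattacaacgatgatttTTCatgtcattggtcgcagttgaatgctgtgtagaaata
mt_tRNA-Ser-TGA (mt-Ts1, chrM:6870-6938): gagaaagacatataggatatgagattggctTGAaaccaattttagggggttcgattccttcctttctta
mt_tRNA-Tyr-GTA (mt-Ty, chrM:5260-5326): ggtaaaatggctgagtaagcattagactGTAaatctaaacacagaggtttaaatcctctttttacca
mt_tRNA-Cys-GCA (mt-Tc, chrM:5192-5257): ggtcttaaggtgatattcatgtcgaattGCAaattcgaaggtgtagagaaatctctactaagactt
mt_tRNA-Asn-GTT (mt-Tn, chrM:5089-5159): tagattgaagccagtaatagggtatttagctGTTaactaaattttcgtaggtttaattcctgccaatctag
mt_tRNA-Ala-TGC (mt-Ta, chrM:5018-5086): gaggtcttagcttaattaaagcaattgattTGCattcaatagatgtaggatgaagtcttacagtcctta
mt_tRNA-Gln-TTG (mt-Tq, chrM:3772-3842): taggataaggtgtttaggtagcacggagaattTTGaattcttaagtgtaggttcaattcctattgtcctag

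The genes are 66 to 71 bases long, are each a single tRNA gene without introns, and form 1 cluster of 4 neighbours (tyrosine, cysteine, asparagine, alanine) and 4 genes apart from them. The serine gene overlaps the last 3 bases of mt-Co1 and the glutamine gene overlaps 3 bases of mt-Ti, both encoded on the opposite strand. The anticodon begins at base 29 to 33 counted from the 5′ end. RNA of 18 to 30 nt had been cut from a gel, so a fragment of that size that starts at the first base ends before the anticodon in 6 of the 8 tRNAs and can reach into it in the tyrosine and cysteine tRNAs. No stretch of 18 bases is shared with another mitochondrial tRNA. Stretches of 18 bases that also occur in other annotated transcripts made up 17 of 50 in the tyrosine tRNA, 4 of 52 in the alanine tRNA and 2 of 54 in the asparagine tRNA, and 0 in the other 5.

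The libraries held 29558751 to 32178088 clean reads, of which 92.6% to 95.2% were annotated to an RNA class. Between 64.9% and 75.2% of the clean reads matched the genome in the CD-F0 group, where replicate 1 was lowest, and 73.3% to 74.7% in the HFD-F0 group. The labelled cell type was checked with 8 miRNAs of sperm and germ cells, all detected in every sample, whose summed level, in reads per 1000000 clean reads of the library (RPM), was 12021 to 14574 RPM in the CD-F0 group and 8804 to 17187 RPM in the HFD-F0 group. miRNAs of other cells were also present, and no miRNA of these lists was at 0 in all samples. Summed over 6 miRNAs of epithelium the level was 3969 to 6756 RPM in CD-F0 against 5520 to 9463 RPM in HFD-F0, and all 6 had a higher mean in HFD-F0. The 6 miRNAs listed for muscle summed to 21352 to 29447 RPM in CD-F0 against 15876 to 36525 RPM in HFD-F0. The 7 of blood and immune cells summed to 3686 to 5534 RPM against 3249 to 6033 RPM. In the muscle list mmu-mir-1a and mmu-mir-133a each entered as 2 hairpins with nearly the same values, so each pair counts as 1 observation. The mean was higher in HFD-F0 for 4 of the 6 of muscle and for 6 of the 7 of blood and immune cells. Of the 8 miRNAs of sperm and germ cells it was higher for 6. It was lower for mmu-mir-449a (ratio 0.789) and mmu-mir-741 (ratio 0.954), and the ratio of the summed level was 0.918. The muscle sum lay above the sperm and germ cell sum in every sample. What share of the RNA came from sperm was not tested. mmu-mir-223, a miRNA of myeloid blood cells, lay at 342 to 377 RPM in CD-F0. It was higher in all 5 HFD-F0 samples (up to 584 RPM, ratio of the means 1.46). In the same list mmu-mir-451a had the lower mean in HFD-F0 (ratio 0.859). mmu-mir-145a of smooth muscle had a mean 2.25 times as high in HFD-F0, but its groups overlapped. It lay at 359 to 811 RPM in CD-F0 and at 787 to 2636 RPM in HFD-F0, with replicate 4 the highest. The other miRNAs of the muscle list had ratios of 0.989 to 1.09. The part of these miRNAs of other cells in the results below was not tested.

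Fragments of the alanine and glutamine tRNAs made up most of the light-strand reads. In RPM per kilobase of tRNA (RPKM), the mean level over the 10 samples was 13628 for mt_tRNA-Ala-TGC and 7436 for mt_tRNA-Gln-TTG. mt_tRNA-Asn-GTT followed with 1725 RPKM, mt_tRNA-Ser-TGA with 1669 RPKM and mt_tRNA-Cys-GCA with 1036 RPKM. The lowest levels were those of mt_tRNA-Glu-TTC with 293 RPKM, mt_tRNA-Pro-TGG with 226 RPKM and mt_tRNA-Tyr-GTA with 161 RPKM. Of all light-strand reads, the alanine tRNA took 52.1% ± 7.61 (SD over 10 samples) and the glutamine tRNA 29.0% ± 3.27, whereas the tyrosine tRNA took 0.594%.

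Within single samples the order of neighbours was firm at some steps and not at others. The alanine tRNA lay above the glutamine tRNA in 10 of 10 samples, glutamine above asparagine in 10 of 10 and cysteine above glutamic acid in 10 of 10. Asparagine lay above serine in only 5 of 10 samples, so these neighbours did not differ beyond their spread, and serine lay above cysteine in 7 of 10. The glutamic acid tRNA was above the proline tRNA in 9 of 10 samples and proline above tyrosine in 8 of 10. The tRNAs that the transcript meets late tended to have the higher fragment levels, but the tyrosine tRNA, at place 4, had the lowest level. The rank correlation between the place along the transcript and the level was 0.79 over the 8 tRNAs. The same correlation for the GC content of the first 30 bases was 0.05. Both describe 8 tRNAs measured in the same libraries, and ligation and modified bases, which differ between tRNAs, enter every level. The part of gene position or of sequence in these levels was not tested.

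**Figure D1:**
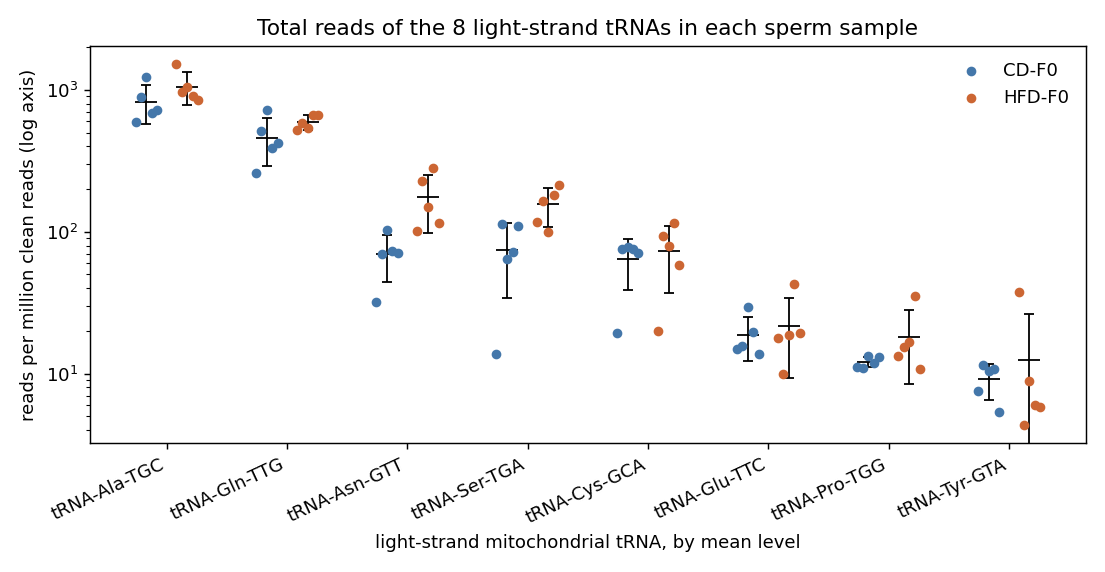
Total level of each light-strand mitochondrial tRNA in RPM, on a log axis, in the 5 CD-F0 (blue) and 5 HFD-F0 (orange) samples. Points are samples, black dashes are group means and bars are 1 SD (the lower bar of tRNA-Tyr-GTA in HFD-F0 runs off the axis). The group ranges overlap for all 8 tRNAs, and the asparagine and serine tRNAs show the widest separation.

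The tRNAs differed in how their reads were divided among the end classes. The files give, for each tRNA, the reads from its 5′ end, its 3′ end and its CCA end, and the reads left over were counted as internal. In the alanine tRNA 98.8% of the reads were 5′ end reads on average over the 10 samples, and the range was 98.0% to 99.1%. The glutamine tRNA (98.1%, range 97.7% to 98.5%) and the cysteine tRNA (96.7%, range 94.8% to 98.7%) were of the same kind. The serine tRNA had 82.3% 5′ end reads, with CD-F0 replicate 1 at 62.0% and the other 9 samples at 79.1% to 89.9%.

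The other 4 tRNAs were represented mostly by internal reads, those assigned to none of the ends. How near to an end a read must lie to be listed there is not given, so internal does not name a place. Internal reads made up 93.3% of the proline tRNA, 90.3% of the glutamic acid tRNA, 78.2% of the tyrosine tRNA and 68.4% of the asparagine tRNA. Their 5′ end shares were correspondingly low, with means of 4.12%, 5.24%, 12.6% and 31.5%. The 3 tRNAs with the lowest fragment levels were therefore also the 3 with the lowest 5′ end share.

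CCA end reads were rare. The tyrosine tRNA had the highest share, with a mean of 9.24% and a range of 4.01% to 15.8%, followed by the glutamic acid tRNA with 3.63% and the proline tRNA with 1.32%. The remaining 5 tRNAs had means of 0.140% or less, and the cysteine tRNA had 1 CCA end read in a single sample. Over all 8 tRNAs there were 861 CCA end reads against 518408 5′ end reads. Of the pooled CCA end reads 61.3% did not match the genome, against 0.0340% of the 5′ end reads, and the share varied between the tRNAs. It was 97.1% of 243 reads in the glutamic acid tRNA, 95.8% of 71 in the proline tRNA and 89.9% of 69 in the asparagine tRNA. In the tyrosine tRNA it was 38.4% of 242 reads, and in the alanine tRNA 2.48% of 121 reads, so nearly all reads listed as CCA end reads of the alanine tRNA matched the genome. Reads without a genome match made up 21.2% of the proline tRNA and 10.5% of the glutamic acid tRNA, and 2.93% or less of the other 6.

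**Figure D2:**
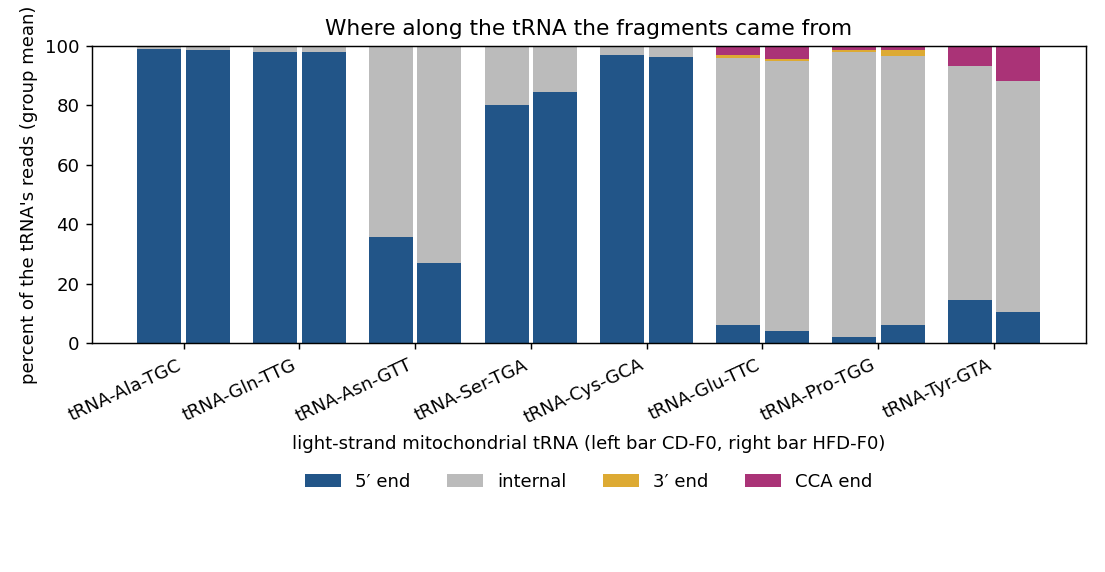
Mean percentage of each tRNA's reads listed as 5′ end, 3′ end or CCA end reads, or left over as internal reads (n = 5 samples per bar, left bar CD-F0 and right bar HFD-F0). The alanine, glutamine, cysteine and serine tRNAs were mostly 5′ end reads, and the asparagine, glutamic acid, proline and tyrosine tRNAs mostly internal reads.

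Between the diets, the asparagine and serine tRNAs rose in HFD-F0 sperm and the other 6 totals did not pass the thresholds. A total was called when its unadjusted p in edgeR's quasi-likelihood test was 0.05 or less and its change was at least 2-fold (a log2 fold change of 1), the thresholds of the study. Of the 8 totals 2 were called higher and 0 lower in HFD-F0. Among all 641 tRNA totals and other RNA sub-classes tested, 6 (0.936%) were called higher and 13 lower. The median log2 fold change of the 8 totals was 0.29, and that of all 641 was -0.04. None of the 641 had an adjusted p (Benjamini-Hochberg over all 641, same edgeR test) under 0.05, and 75 had an unadjusted p of 0.05 or less. In bulk sperm RNA, fewer cells of a type and less RNA per cell cannot be told apart.

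mt_tRNA-Asn-GTT, the asparagine carrier, stood at 32.2, 69.7, 103, 73.4 and 70.3 RPM in CD-F0 replicates 1 to 5. In HFD-F0 replicates 1 to 5 it stood at 101, 227, 149, 282 and 116 RPM. CD-F0 replicate 1 was the lowest of all and 4 of 5 HFD-F0 samples lay above the highest CD-F0 sample, so the groups overlapped by a single sample. The mean rose from 69.8 ± 25.3 RPM (SD, n = 5) to 175 ± 77.3 RPM, which is 2.51 times as high. In edgeR's quasi-likelihood test the log2 fold change was 1.30 with a standard error (SE) of 0.36 and passed the unadjusted threshold, with an adjusted p of 0.280. It stayed called when any one of the 10 samples was left out.

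mt_tRNA-Ser-TGA stood at 13.7, 113, 64.2, 72.0 and 109.9 RPM in CD-F0 replicates 1 to 5 and at 117, 166, 99.7, 181 and 215 RPM in HFD-F0 replicates 1 to 5. CD-F0 replicate 1 was far below the rest, and 4 of 5 HFD-F0 samples lay above the highest CD-F0 sample. The mean rose from 74.6 ± 40.5 RPM (SD, n = 5) to 156 ± 47.4 RPM, 2.09 times as high, with a log2 fold change of 1.04 (SE 0.45, edgeR adjusted p = 0.405). This call rested on single libraries. It was lost without CD-F0 replicate 1 (log2 fold change 0.76), 3 (0.98) or 4 (1.05), and without HFD-F0 replicate 2 (0.99), 4 (0.96) or 5 (0.86).

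The 2 tRNAs with the most reads differed by less. mt_tRNA-Ala-TGC measured 594, 893, 1228, 686 and 727 RPM in CD-F0 replicates 1 to 5 and 1525, 959.7, 1045, 904 and 843 RPM in HFD-F0 replicates 1 to 5, with a log2 fold change of 0.26 (SE 0.17, edgeR adjusted p = 0.591). The groups overlapped, with 1 HFD-F0 sample above the highest CD-F0 sample. mt_tRNA-Gln-TTG measured 258, 513, 719, 389.8 and 421 RPM in CD-F0 and 519.6, 584, 535, 669 and 671 RPM in HFD-F0, with a log2 fold change of 0.33 (SE 0.24, edgeR adjusted p = 0.625). Here 4 of 5 CD-F0 samples were below all HFD-F0 samples and CD-F0 replicate 3 was above them all.

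The cysteine tRNA, mt_tRNA-Cys-GCA, stood at 19.3, 75.3, 77.9, 75.4 and 71.2 RPM in CD-F0 and at 20.0, 92.7, 79.0, 115 and 58.2 RPM in HFD-F0. Replicate 1 of each group was the low sample, and the log2 fold change was 0.18 (SE 0.47, edgeR adjusted p = 0.938). mt_tRNA-Glu-TTC stood at 15.0, 15.7, 29.4, 19.7 and 13.8 RPM in CD-F0 and at 17.9, 9.89, 18.7, 42.6 and 19.3 RPM in HFD-F0, with a log2 fold change of 0.16 (SE 0.37, edgeR adjusted p = 0.925). Without HFD-F0 replicate 4, the highest sample, its log2 fold change was -0.29.

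mt_tRNA-Pro-TGG lay between 11.0 and 13.2 RPM in the 5 CD-F0 samples, and HFD-F0 replicates 1 to 5 gave 13.2, 15.3, 16.7, 35.0 and 10.7 RPM. HFD-F0 replicate 4 was again the highest, and the log2 fold change was 0.54 (SE 0.31, edgeR adjusted p = 0.534) and 0.11 without that sample. mt_tRNA-Tyr-GTA lay between 5.36 and 11.5 RPM in CD-F0, and at 37.4, 4.35, 8.86, 6.01 and 5.77 RPM in HFD-F0, with a log2 fold change of 0.23 (SE 0.47, edgeR adjusted p = 0.907). Only HFD-F0 replicate 1 exceeded the CD-F0 range, and without it the log2 fold change was -0.55.

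Split into fragments, the 8 tRNAs give 32 features, of which 19 had enough reads to be tested. The 13 not tested were the 3′ ends of all 8 tRNAs and the CCA ends of the glutamine, asparagine, cysteine, serine and proline tRNAs, none with more than 33 reads in a sample. Of the 19, 3 were called higher and 0 lower in HFD-F0, against 17 (2.09%) higher and 13 lower among all 814 features tested. Of the 3, the alanine CCA end and the proline 5′ end passed the filter on low counts mainly through the HFD-F0 samples, where they were high, so the count is a description. With at least 10 counts in every sample 1 of 16 was called, the asparagine internal reads. The log2 fold change was above 0 for 17 of the 19, with a median of 0.39 against -0.01 over all 814. The exceptions were the 5′ ends of the glutamic acid tRNA (-0.48) and the tyrosine tRNA (-0.45), neither of which passed the test. The smallest adjusted p among the 19 was 0.224 in edgeR's quasi-likelihood test, and 83 of the 814 had an unadjusted p of 0.05 or less, of which 1 had an adjusted p under 0.05.

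**Figure D3:**
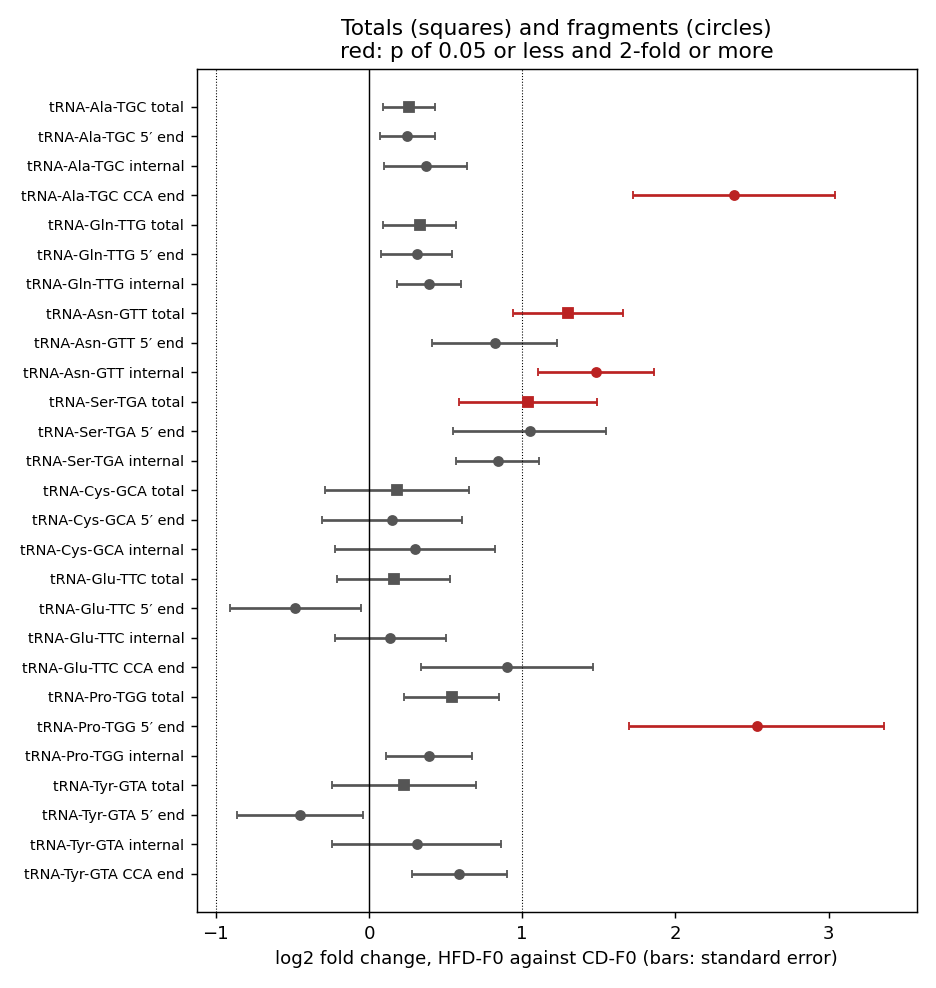
log2 fold change of HFD-F0 against CD-F0 for the 8 totals (squares) and the 19 tested fragments (circles), with standard errors derived from edgeR's F statistic. Red marks the 2 totals and 3 fragments with p of 0.05 or less and at least a 2-fold change, and dotted lines mark a 2-fold change. Only the 5′ ends of tRNA-Glu-TTC and tRNA-Tyr-GTA lie below 0.

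In the asparagine tRNA the rise lay mainly in the internal reads. They numbered 601, 1329, 1883, 1468 and 1672 in CD-F0 replicates 1 to 5 and 2257, 6415, 3624, 5822 and 2251 in HFD-F0 replicates 1 to 5. All 5 HFD-F0 samples lay above all 5 CD-F0 samples, with replicates 2 and 4 the highest. The mean rose from 44.5 ± 15.5 to 128 ± 60.0 RPM (SD, n = 5), with a log2 fold change of 1.48 (SE 0.38, edgeR adjusted p = 0.224).

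The 5′ end reads of the same tRNA numbered 378, 872, 1324, 838 and 527 in CD-F0 and 970, 868, 1153, 3162 and 1157 in HFD-F0. HFD-F0 replicate 4 stood well above the others and the remaining samples overlapped, and the fragment was not called (log2 fold change 0.82, standard error 0.41, adjusted p = 0.491 in edgeR). The 5′ end share of the asparagine tRNA was 35.9% ± 6.95 in CD-F0 and 27.0% ± 9.43 in HFD-F0 (SD, n = 5), a difference that an exact permutation test over the samples did not separate (two-sided p = 0.119, adjusted over all tRNAs tested 0.899).

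In the serine tRNA, the mean of the 5′ end reads and that of the internal reads were both higher in HFD-F0, and whether they were called depended on the fit. Its internal reads numbered 159, 481, 356, 312 and 549 in CD-F0 and 779, 749, 574, 791 and 640 in HFD-F0. These groups did not overlap, and with a log2 fold change of 0.84 (SE 0.27, edgeR adjusted p = 0.250) the fragment passed the unadjusted p threshold but not the 2-fold threshold. The 5′ end reads numbered 259, 3098, 1631, 1951 and 2890 in CD-F0 and 2950, 4564, 2623, 4992 and 5723 in HFD-F0, with a log2 fold change of 1.05 (SE 0.50, edgeR adjusted p = 0.470), and did not pass the unadjusted p threshold. They passed both thresholds in 8 of 17 alternatives, which were DESeq2 (1.04), clean reads as library size (1.09), no filter on low counts (1.05), the fit with a replicate block (1.27), and the fits without HFD-F0 replicate 1 or 3 or without CD-F0 replicate 2 or 5. The internal reads passed both without CD-F0 replicate 5 (1.02). For the 5′ end reads the groups overlapped, and CD-F0 replicate 1 was lowest by a wide margin.

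The reads listed as CCA end reads of the alanine tRNA rose, at a level of a few reads per library. Since only 2.48% of them had no genome match, whether they carry an added CCA was not tested. They numbered 7, 1, 3, 0 and 7 in CD-F0 replicates 1 to 5 and 12, 16, 23, 22 and 30 in HFD-F0 replicates 1 to 5. The groups did not overlap, and the mean rose from 0.116 ± 0.107 to 0.659 ± 0.243 RPM (SD, n = 5), with a log2 fold change of 2.38 (SE 0.66, edgeR adjusted p = 0.225). All 5 HFD-F0 samples and none of the CD-F0 samples had 10 reads or more, so the fragment passed the filter on low counts through the HFD-F0 group alone. At its CD-F0 counts it would not have been tested without high HFD-F0 counts, so its call is a description.

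The 5′ end reads of the proline tRNA numbered 5, 9, 2, 5 and 17 in CD-F0 and 21, 16, 24, 164 and 12 in HFD-F0. HFD-F0 replicate 4 held most of the reads, and CD-F0 replicate 5 overlapped with the HFD-F0 group. The log2 fold change of 2.53 (SE 0.83, edgeR adjusted p = 0.250) was called, and without HFD-F0 replicate 4 it was 1.11 and no longer called. Of its samples with 10 reads or more, 5 were HFD-F0 and 1 was CD-F0, so it too passed the filter through the group in which it was high.

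**Figure D4:**
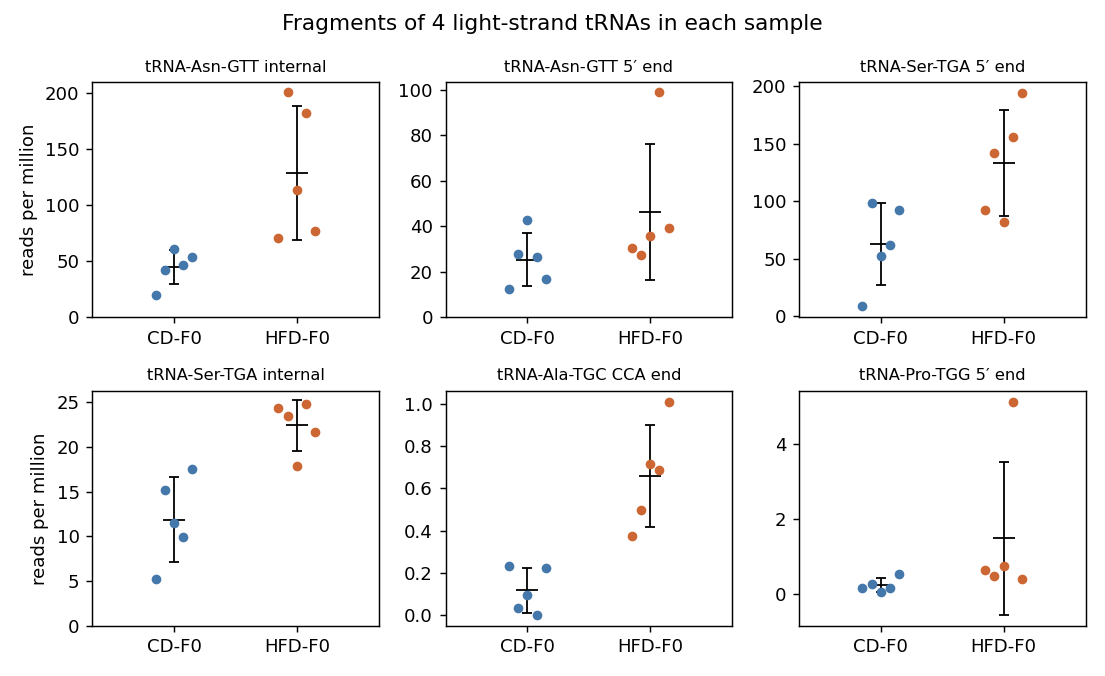
Level in RPM of 6 fragments of the asparagine, serine, alanine and proline tRNAs in each sample. Points are samples, black dashes are means and bars are 1 SD (n = 5). The groups do not overlap for tRNA-Asn-GTT internal, tRNA-Ser-TGA internal and tRNA-Ala-TGC CCA end, and the tRNA-Pro-TGG 5′ end mean in HFD-F0 is set by replicate 4.

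The remaining main fragments followed their totals. The log2 fold change was 0.25 (SE 0.18) for the 5′ end of the alanine tRNA, 0.31 (0.23) for that of the glutamine tRNA and 0.15 (0.46) for that of the cysteine tRNA. For the internal reads it was 0.14 (0.36) in the glutamic acid tRNA, 0.39 (0.28) in the proline tRNA (0.04 without HFD-F0 replicate 4) and 0.31 (0.55) in the tyrosine tRNA. None of these 6 passed the test, and their adjusted p in edgeR ranged from 0.661 to 0.948.

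Shares within a tRNA do not depend on the library size, and they were compared with an exact two-sided permutation test over every way of dividing the 10 samples into 5 and 5. The smallest p this test can give is 0.00794. For the CCA end share, 1 of the 8 tRNAs had p of 0.05 or less, against 9.72% of the 72 nuclear and mitochondrial tRNAs tested. This was the alanine tRNA, at 0.0162% ± 0.0174 in CD-F0 and 0.0683% ± 0.0352 in HFD-F0 (SD, n = 5, exact permutation p = 0.0238, adjusted 0.400). CD-F0 replicates 1 and 5 overlapped with HFD-F0 replicate 1. The tyrosine tRNA, with the most CCA end reads, had 4.35%, 4.96%, 6.76%, 6.49% and 11.3% in CD-F0 and 4.01%, 15.8%, 10.2%, 15.6% and 12.9% in HFD-F0 (exact permutation p = 0.103, adjusted 0.495), so the groups overlapped through 1 sample on each side. With end reads alone as the denominator the tyrosine tRNA passed as well, which made 2 of 8.

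For the 5′ end share, 1 of the 8 tRNAs had p of 0.05 or less, against 5.56% of the 72 tested. This was the proline tRNA, at 1.47%, 2.58%, 0.489%, 1.33% and 4.17% in CD-F0 and 4.99%, 3.26%, 4.46%, 14.7% and 3.79% in HFD-F0. The mean share was 2.01% ± 1.42 against 6.23% ± 4.76 (SD, n = 5, exact permutation p = 0.0238, adjusted 0.571). The groups overlapped through CD-F0 replicate 5, and p exceeded 0.05 when any one of CD-F0 replicates 1 to 4 was left out. In the alanine, glutamine and cysteine tRNAs the mean 5′ end share in HFD-F0 minus that in CD-F0 was -0.161, -0.0891 and -0.767 percentage points, with exact permutation p of 0.571, 0.659 and 0.381. With end reads alone as the denominator the called tRNAs were alanine, cysteine and tyrosine, and proline was not among them.

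Summed over the 8 tRNAs, the light-strand reads stood at 951, 1702, 2245, 1339 and 1432 RPM in CD-F0 replicates 1 to 5 and at 2350, 2059, 1952, 2235 and 1939 RPM in HFD-F0 replicates 1 to 5. The CD-F0 samples varied widely and the HFD-F0 samples little, and CD-F0 replicate 3 overlapped with the HFD-F0 group. The mean was 1534 ± 480.3 RPM in CD-F0 and 2107 ± 180.3 RPM in HFD-F0 (SD, n = 5), 1.37 times as high, and no test was run on a sum over chosen tRNAs. Without the alanine tRNA the ratio was 1.48, and without CD-F0 replicate 1, the lowest sample, it was 1.25. The 16S and 12S rRNAs of mitochondria, summed, measured 8997 ± 1615 RPM and 10336 ± 961 RPM, a ratio of 1.15, and the nuclear tRNAs had a ratio of 0.993. The 5 CD-F0 libraries matched the genome at 64.9% to 75.2%, and relative to genome-matched reads the light-strand ratio was 1.32.

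The 14 mitochondrial tRNAs of the other strand gave 1067, 2470, 2184, 2108 and 2396 RPM in CD-F0 and 2717, 3347, 3399, 3847 and 3462 RPM in HFD-F0. Their groups did not overlap, and the ratio of the means was 1.64. Of their 14 totals 1 was called higher and 0 lower, with a median log2 fold change of 0.75 and 10 of 14 at an unadjusted p of 0.05 or less in edgeR. Of the 34 features of theirs that were tested 8 were called higher and 0 lower, with a median of 0.82. The light-strand tRNAs made up 43.0% ± 5.70 of the mitochondrial tRNA reads in CD-F0 and 38.7% ± 4.36 in HFD-F0 (SD, n = 5), and the groups overlapped. Whether the 2 strands differ in their response to the diet was not tested.

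With reads pooled over the tRNAs, the 5′ end and CCA end shares of the 2 strands did not overlap over the 10 samples. Light-strand tRNAs together had 92.5% ± 0.984 5′ end reads in CD-F0 and 89.2% ± 2.96 in HFD-F0, whereas the other 14 had 74.5% ± 3.64 and 75.0% ± 4.76 (SD, n = 5). CCA end reads made up 0.110% ± 0.0216 and 0.182% ± 0.0864 of the light-strand reads. In the other 14 they made up 2.05% ± 0.606 and 4.08% ± 0.907, and there the groups did not overlap. The pooled light-strand shares are mostly those of the alanine and glutamine tRNAs. With each tRNA weighted equally, an alternative chosen after seeing the data, the mean 5′ end share was 54.1% ± 1.78 in CD-F0 and 53.2% ± 2.07 in HFD-F0 over the 8 light-strand tRNAs, and 46.4% ± 2.56 and 45.5% ± 3.89 over the other 14 (SD, n = 5). Single tRNAs ranged from 4.12% to 98.8% on the light strand and from 0.0395% to 95.3% among the other 14. The CCA end share with equal weights was 1.38% ± 0.417 in CD-F0 and 2.24% ± 0.850 in HFD-F0 on the light strand, and 4.35% ± 1.63 and 6.02% ± 1.59 in the other 14, where the diet groups then overlapped. The CCA end shares of the 2 strands then overlapped as well, with the light strand up to 3.07% and the other 14 down to 2.70%. Their 5′ end shares with equal weights did not overlap.

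**Figure D5:**
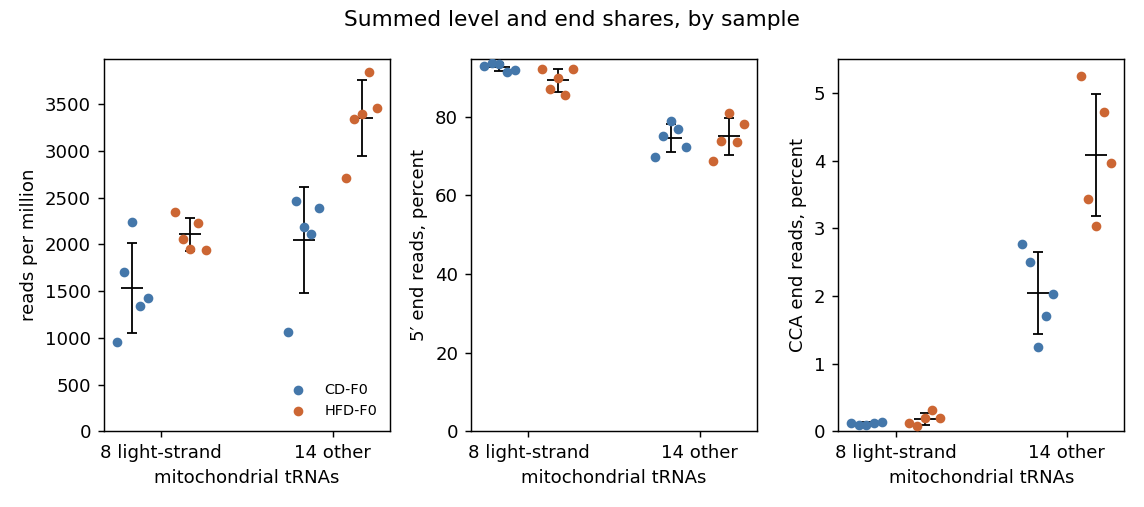
Level in RPM (left), percentage of 5′ end reads (middle) and percentage of CCA end reads (right), summed over the 8 light-strand and the 14 other mitochondrial tRNAs, in each CD-F0 (blue) and HFD-F0 (orange) sample, with means and 1 SD (n = 5). The light-strand groups overlap in all 3 panels, and the other tRNAs separate by level and by CCA end reads.

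Outside the mitochondrial tRNAs, the 3 RNAs whose level followed the light-strand sum most closely over the 10 samples were let-7 miRNAs: mmu-let-7e, mmu-let-7f-1 and mmu-let-7f-2, each with a Pearson correlation of 0.93 on the log2 scale, of 370 RNAs ranked. mmu-let-7e stood at 567, 829, 850.3, 626 and 713 RPM in CD-F0 and at 1064, 1050, 894, 993 and 939 RPM in HFD-F0, and its groups did not overlap. The 2 hairpins of let-7f give the same mature miRNA and share reads, so they count as 1 observation. All points come from the same libraries and the same clean read totals, and the correlation is given as a description.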

How the data were processed

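RNA of 18 to 30 nt from 10 sperm samples was sequenced on DNBSEQ machines from adapters that hold molecular identifiers, and the clean reads were assigned by the authors with SPORTS, which uses Bowtie with mismatches allowed (genome build mm10, per the labels). Whether identifiers were collapsed is not given in the sources used here. The authors deposited estimated counts of reads per RNA sub-class, not normalized: reads that match more than 1 sub-class are shared out, and 37.3% to 39.8% of sub-class values were not whole. Reads with and without a genome match were added, absent entries were set to 0, and a tRNA's internal reads were its total minus its end reads. Counts were rounded, filtered with filterByExpr, normalized by TMM and tested in edgeR 4.0.16 (R 4.3.3), once on 1473 fragment features (814 tested) and once on 1254 totals (641 tested), with Benjamini-Hochberg adjustment over each table. Each standard error was derived as the absolute log2 fold change divided by the square root of the F statistic of the edgeR test. Library sizes in edgeR were the annotated reads, and RPM were relative to the 29558751 to 32178088 clean reads. Counts were also simulated from the fitted model with known changes (795 features), each larger than the changes of the called totals. Of 193 changed features 190 were recovered, and 1.33% of the unchanged ones were called. Recovery of changes as small as those of the called totals was not tested. Shares needed 100 reads of the tRNA in each sample. Genome overlap and sequences came from GENCODE M21. The alternatives were DESeq2 1.42.0, other library sizes and filters, tRNA features alone, genome-matched reads, a replicate block and leaving out each sample. The members and lists were chosen with earlier results of these data known. Named were all 8 tRNAs, each called fragment, each tRNA's most abundant fragment, and the 3 RNAs with a mean of 10 RPM or more most like the sum (pseudocount 1). The serine internal and 5′ end reads and the asparagine 5′ end reads were added after their values were seen, as were the fragments whose sign differed from the rest.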

Additional observations from a re-analysis of the deposited data

Results flagged for a closer look

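A sample was picked out where its gap to the nearest other sample of its group, divided by the group's range, exceeded the Dixon limit of 0.71 for 5 samples. Of 69 groups of values looked at, 13 gave such a sample, and chance gives about 1 in 20 where groups are independent. Here a total and its main fragment share most of their reads, so the 13 cannot be read as an excess. In CD-F0 replicate 1 the cysteine tRNA total was 19.3 RPM (other CD-F0 samples 71.2 to 77.9), its 5′ end reads were 18.7 RPM (69.2 to 74.2), and the 5′ end share of the serine tRNA was 62.0% (81.9 to 86.5). In HFD-F0 replicate 4 the glutamic acid tRNA total was 42.6 RPM (other HFD-F0 samples 9.89 to 19.3) and its internal reads 39.1 RPM (9.24 to 16.9). The same sample had a proline tRNA total of 35.0 RPM (10.7 to 16.7), proline 5′ end reads of 5.13 RPM (0.406 to 0.746) and a proline 5′ end share of 14.7% (3.26 to 4.99). In HFD-F0 replicate 1 the tyrosine tRNA total was 37.4 RPM (4.35 to 8.86) and its internal reads 33.4 RPM (3.26 to 7.30). Single values were the asparagine 5′ end share of 23.9% in CD-F0 replicate 5 (36.3 to 41.3), the glutamic acid 5′ end share of 12.1% in CD-F0 replicate 2 (3.28 to 5.82) and the cysteine CCA end share of 0.0581% in HFD-F0 replicate 5, which is 1 read (0 in the others). CD-F0 replicate 1 also had the lowest genome-matched share, 64.9%, whose part in these values was not tested.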

How the results depend on the processing

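The 3 called fragments became 6 with no filter on low counts, 1 with at least 10 counts in every sample (the asparagine internal reads), 4 with clean reads as library size, and 2 to 5 when 1 sample was left out (2 without HFD-F0 replicate 4, 5 without CD-F0 replicate 5). With tRNA features alone there were 3 and with genome-matched reads 3. DESeq2 also called 3, of which the serine 5′ end is not among the 3 of edgeR and the proline 5′ end, for which DESeq2 gave no p, is missing. The 2 called totals stayed at 2 in each of the 7 alternatives that kept all samples and were 1 to 2 when 1 sample was left out, the serine tRNA being the one lost. The CCA end share count of 1 became 2 over end reads and 1 to 2 with a sample left out (2 without HFD-F0 replicate 1 or 2). The 5′ end share count of 1 became 3 over end reads, 0 with at least 1000 reads in each sample (where 2 tRNAs could be tested) and 0 to 2 with a sample left out (0 without any one of CD-F0 replicates 1 to 4, 2 without CD-F0 replicate 5). The summed ratio of 1.37 stayed within 1.32 to 1.48 under the other settings and 1.25 to 1.55 with a sample left out. The replicate block gave 4 called fragments, the added one being the serine 5′ end, and 2 called totals. The serine 5′ end was also the added one with clean reads as library size. Same-numbered samples deviated together with correlations of -0.191 to 0.336, and 4 of 10 samples matched their own number best. These values do not settle whether the numbers are pairs. The labels name no pairing, so the main fit took none and the replicate block is given as an alternative.

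Of 453 single log2 fold changes under the alternatives, 11 changed sign. With a sample left out, the cysteine tRNA ranged from -0.07 to 0.44 in its total, -0.10 to 0.37 in its 5′ end and -0.18 to 0.66 in its internal reads, and the glutamic acid tRNA from -0.29 to 0.36 in its total and -0.32 to 0.35 internally. The tyrosine tRNA ranged from -0.55 to 0.42 in its total and -0.69 to 0.54 internally, and with the replicate block it gave -0.13 and -0.17. The asparagine total was called in all 17 alternatives (1.03 to 1.48) and its internal reads in all 17 (1.24 to 1.62), with adjusted p of 0.0316 to 0.532 and 0.0116 to 0.429, the lowest in DESeq2. The alanine CCA end was called in the 16 alternatives that tested it (2.07 to 2.81, adjusted p 0.0343 to 0.429). Except with no filter on low counts, it entered these fits through the HFD-F0 group, where it was high. Its calls are therefore a description, and with at least 10 counts in every sample it was not tested. The cause of the shifts between alternatives was not tested. Depth limits the CCA and 3′ ends, with a few reads per library, and the files give no fragment lengths.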
